A study of Mus musculus with 9 samples.

Results

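Macrophages and other phagocytes are leukocytes that live in adipose tissue, and their genes were read in cultures of the stromal vascular fraction (SVF), the mixed cells that enzyme digestion releases from fat. The 38 genes described here were found by symbol on an Affymetrix Mouse Gene 1.0 ST array. Each had exactly 1 transcript cluster, the array's unit for a gene, that carried its symbol alone, and all 38 of 38 were read, with no filter on low values, among 19938 genes of 1 symbol and 33323 clusters in all. The genes were chosen from textbook phagocyte markers and from measured values of these same arrays: C3ar1, Plek, Tlr13, Clec4d, Mpeg1, Gpnmb and Atp6v0d2 were on the list because they had been among the largest falls in beating samples. The comparison of beating with non-beating samples was therefore already used. Its values are given for the 38 genes as a description, and where the fit over all clusters called any of them, the count is printed beside that of all clusters and supports nothing about them.

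The cells came from subcutaneous adipose tissue of C57BL6/J mice aged 10 weeks and grew without added treatment in a minimal medium on uncoated plastic. The beating group (n = 4) held colonies that contracted spontaneously, which were picked by hand on day 28 and, per the study's methods, pooled from a few dishes of 1 SVF lot. The non-beating group (n = 4) held the other cells of those dishes on day 28. The round sample (n = 1) was a pool of 6 round cells collected on day 14. No genotype or treatment differed between the groups, but the handling did. Per the study's methods, RNA of the hand-picked colonies was extracted with a NucleoSpin RNA XS kit and that of unselected cells with an ISOSPIN kit. Effects of picking and kit cannot be told apart from those of the cells in this contrast. The study's methods name removal of lymph nodes and no step that removes macrophages, so the non-beating group is the remainder of a mixed culture and not a purified cell type. The beating picks were not purified either. The study's authors speculated that these picks also held round cells and non-beating skeletal myocytes from nearby. Whether the 4 samples of a group are separate lots is not given in the sources used here, and a p-value then measures only the spread between these samples.

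Macrophages depend on the growth factor receptor Csf1r and on the transcription factor Spi1 (PU.1), and they are the resident phagocytes of fat. They sense microbes and dead cells through Toll-like, lectin, scavenger and Fc receptors, of which several signal through the membrane adaptors Fcer1g and Tyrobp. Engulfed material is degraded in lysosomes, which the vacuolar proton pump acidifies and which hold proteases such as Ctss and, in many macrophages, the glycoprotein Gpnmb.

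PU.1 binds purine-rich sites around the letters GGAA, and such sites are known from the promoters of many myeloid genes. RefSeq promoter windows (GRCm38.p6, 300 bases around a gene's start) were held for 27 of the 38 genes and were searched on both strands for GAGGAAGT and AGAGGAAG. These motifs share GAGGAAG and can overlap. GAGGAAGT was present in 4 of the 27 genes (14.8%) against 3.69% of 27025 genes, and AGAGGAAG in 7 (25.9%) against 5.22%. Either motif was present in 10 of 27 genes (37%) against 7.62% of all genes and 6.68% of all 32851 windows of that length. The stretches before the gene start are shown for the following 8 genes, in which a whole match lay before the start. Each is written 5′ to 3′ on the gene's strand, with the match to the motif, or to its reverse complement, in capitals.
Laptm5, chr4:130913241-130913315, plus strand: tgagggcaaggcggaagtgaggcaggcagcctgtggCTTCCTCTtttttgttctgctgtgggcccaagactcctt
Fcgr1, chr3:96293982-96294061, minus strand: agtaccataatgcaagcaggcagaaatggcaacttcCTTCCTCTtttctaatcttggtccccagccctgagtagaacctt
Fcgr3, chr1:171059395-171059446, minus strand: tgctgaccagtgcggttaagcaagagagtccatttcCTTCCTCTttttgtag
Tlr13, chrX:106143155-106143234, plus strand: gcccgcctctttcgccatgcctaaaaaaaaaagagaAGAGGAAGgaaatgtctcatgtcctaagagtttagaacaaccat
Clec4d, chr6:123261857-123261909, plus strand: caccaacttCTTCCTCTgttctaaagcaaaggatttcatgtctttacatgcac
Mrc1, chr2:14229342-14229413, plus strand: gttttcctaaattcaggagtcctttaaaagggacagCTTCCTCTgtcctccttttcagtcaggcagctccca
C1qc, chr4:136893066-136893145, minus strand: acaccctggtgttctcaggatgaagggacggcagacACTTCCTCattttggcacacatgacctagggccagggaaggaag
Mmp12, chr9:7344273-7344352, plus strand: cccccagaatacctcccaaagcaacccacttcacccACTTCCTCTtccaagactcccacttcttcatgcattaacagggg
The first base of the match lay 39 bases before the annotated start in Laptm5, 56 in Fcgr1, 16 in the second window of Fcgr3, 84 in Tlr13, 241 in Clec4d, 36 in Mrc1, 195 in C1qc and 88 in Mmp12, where the capitals hold both motifs. Ctss and Cd53 also had a match, which began 2 bases before the start in Ctss and 7 bases after it in Cd53. A match says only that these letters are in the window, and binding was not measured.

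Values are log2 signals as deposited, which include background, so a difference of 1 is a doubling of signal and a fold understates the change of a dim gene. Levels of different genes are not compared, because their probes differ. The array medians lay between 3.08 and 3.17 on the 8 beating and non-beating arrays and at 3.54 in the round pool. In these bulk samples, fewer macrophages and less RNA per macrophage cannot be told apart.

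All 38 genes had a lower mean in the beating than in the non-beating samples, against 48.1% of all clusters. The mean over the 38 genes was 3.55, 4.07, 4.28 and 5.12 in beating replicates 1 to 4 and 5.38, 6.47, 5.35 and 6.83 in non-beating replicates 1 to 4. The groups did not overlap in this mean, and beating replicate 4 lay nearest to the non-beating arrays. Over the single genes, the median difference was -1.89, against 0.007 over all clusters, and it lay between -0.05 for Cd163 and -3.13 for Mrc1. The difference was at least 1 in 29 of the 38 genes, against 1.28% of all clusters.

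The 14 surface and lineage genes had a median difference of -1.71, and 7 of them did not overlap between the groups. Over all clusters, 8.24% were separated with the beating arrays lower. The same share stands beside the counts of the other gene groups below. C3ar1, the receptor for the complement peptide C3a, read 4.01, 4.81, 5.55 and 6.93 in beating replicates 1 to 4 and 7.51, 8.84, 7.67 and 9.34 in non-beating replicates 1 to 4. The means were 5.32 ± 1.24 and 8.34 ± 0.90 (SD, n = 4 each), an 8.09-fold lower signal in beating samples. Every beating array lay below every non-beating array, with a gap of 0.58 between the nearest arrays.

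Plek (pleckstrin), a protein kinase C substrate of leukocytes and platelets, read 3.71, 4.20, 4.54 and 5.91 in beating and 6.90, 7.98, 6.69 and 8.52 in non-beating samples. The groups were separated by 0.78, and the signal was 7.63-fold lower in the beating mean. Sirpa, the inhibitory receptor that binds Cd47 on other cells, read 6.34, 6.38, 6.86 and 7.55 against 8.14, 8.64, 8.06 and 8.88. It had a smaller difference of -1.65, and its groups were also separated, by 0.51.

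Cd68, a glycoprotein of macrophage endosomes and lysosomes, read 4.30, 5.95, 6.26 and 7.45 in beating and 8.27, 9.33, 7.71 and 9.55 in non-beating samples. The beating arrays alone spanned 3.15, more than the difference of -2.72 between the group means. Mpeg1 (perforin-2, a pore-forming protein of phagocytes) read 3.47, 4.19, 4.24 and 5.82 against 5.97, 7.53, 6.21 and 7.71. Its groups were separated by only 0.15. Cd84, a leukocyte adhesion receptor, was lower by a difference of -2.48 and did not overlap.

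Adgre1 (F4/80), the classical surface marker of mouse macrophages, read 3.06, 3.35, 3.19 and 4.17 in beating and 4.16, 5.88, 4.70 and 6.12 in non-beating samples. Its groups overlapped, since beating replicate 4 lay just above non-beating replicate 1. Ptprc (CD45), carried by nearly all leukocytes, read 3.18, 3.18, 3.58 and 3.78 against 3.75, 5.26, 3.75 and 5.69 and overlapped in the same way. The tetraspanin Cd53 and the lysosomal protein Laptm5, which are shared by most leukocytes, had differences of -1.25 and -2.02 and overlapped narrowly, in beating replicate 4 alone.

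The growth factor receptor and the transcription factor that macrophages depend on had dim signals and differences below the median of the 38 genes. Csf1r read 2.82, 2.77, 3.25 and 3.58 in beating and 3.41, 4.14, 3.41 and 4.59 in non-beating samples, and the groups overlapped. Spi1 read 3.10, 2.65, 2.84 and 3.11 against 3.50, 4.24, 3.16 and 4.99, and its groups were 0.06 apart. The integrin chains Itgam (CD11b) and Itgb2 (CD18), which pair to form complement receptor 3, differed by -0.29 and -0.81 and overlapped. Itgam held 1 identical value on 4 of the 8 arrays, and such values carry no order.

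The 6 Fc receptors and adaptors had a median difference of -2.03, and 5 of them did not overlap. Fcer1g, the adaptor that carries the signal of Fc receptors, read 3.70, 4.30, 4.62 and 6.60 in beating and 6.76, 8.61, 6.99 and 8.89 in non-beating samples. Its difference was -3.01, and beating replicate 4 stood 0.17 below the lowest non-beating array. Tyrobp (DAP12), the adaptor of Trem2 and related receptors, read 3.75, 5.13, 5.51 and 6.86 against 7.12, 8.45, 7.04 and 8.92. Its lowest non-beating array was likewise 0.17 above beating replicate 4.

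Among the receptors, Fcgr3, an activating receptor for immunoglobulin G, read 3.24, 3.48, 3.25 and 4.39 in beating and 4.91, 6.29, 4.96 and 6.39 in non-beating samples. The groups were separated by 0.52. Fcgr2b, the inhibitory receptor of this family, differed by -2.01 and overlapped, with beating replicate 4 at 4.89 and non-beating replicate 1 at 4.74. Fcgr2b and Fcgr3 are alike in sequence, so signal shared by their probes cannot be separated here.

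Fcgr1, the high-affinity receptor, differed by -0.87 and was separated by 0.06. Trem2, a receptor for lipids and dead cells, read 4.03, 4.12, 3.73 and 4.12 in beating and 4.48, 5.25, 4.62 and 4.92 in non-beating samples. It varied little within the beating group (SD 0.19) and was separated by 0.35, although its difference of -0.82 was among the smaller ones of the 38 genes.

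The 9 receptors for microbial patterns and sugars had a median difference of -1.18, and 4 of them did not overlap. Mrc1 (CD206), the mannose receptor, read 3.29, 4.57, 5.32 and 7.06 in beating and 7.01, 8.86, 7.53 and 9.39 in non-beating samples. It had the widest gap between group means of the 38 genes, an 8.76-fold lower signal in beating samples, and yet beating replicate 4 lay above non-beating replicate 1. Msr1, a scavenger receptor for modified lipoproteins, read 2.61, 2.84, 3.99 and 5.04 against 5.52, 7.05, 5.67 and 8.02, with a separation of 0.48.

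Tlr13, an endosomal sensor of bacterial ribosomal RNA, read 2.42, 3.42, 3.33 and 4.25 in beating and 4.96, 6.48, 5.08 and 7.05 in non-beating samples. Clec4d, a C-type lectin that recognises mycobacterial glycolipid, read 3.39, 4.35, 4.08 and 5.10 against 6.07, 7.31, 5.69 and 7.72. These genes were separated by 0.71 and 0.59, more than most of the 38. Both were listed for their large falls in these same samples, so nothing is read from that rank. Tlr7, the endosomal sensor of single-stranded RNA, differed by -1.18 and was separated by 0.02.

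The remaining receptors of this group had smaller differences. Tlr2, a sensor of bacterial lipopeptides, read 4.14, 4.68, 4.68 and 4.61 in beating and 4.54, 4.97, 4.69 and 5.13 in non-beating samples. Clec7a (dectin-1), the receptor for fungal beta-glucan, differed by -0.28 and Cd14, the co-receptor for lipopolysaccharide, by -1.03, and both overlapped. Cd163, the scavenger receptor for haemoglobin and haptoglobin, read 2.21 to 2.25 in beating and 2.25 to 2.41 in non-beating samples, with 1 identical value on 6 of the 8 arrays. It lay below the array medians throughout.

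The 9 effector and lysosome genes had a median difference of -2.02, and 6 of them did not overlap. Lyz2, the lysozyme of macrophages, read 5.04, 6.62, 7.60 and 9.22 in beating and 9.01, 10.55, 8.83 and 10.62 in non-beating samples. The beating arrays spanned over 4 log2 units, and beating replicate 4 exceeded both lower non-beating arrays. Lyz2 has a near-identical neighbour, Lyz1, whose signal cannot be separated from it here.

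Atp6v0d2, a subunit of the proton pump that macrophages and osteoclasts carry, read 3.55, 3.79, 4.26 and 4.75 in beating and 5.75, 7.06, 5.61 and 7.83 in non-beating samples. Gpnmb read 4.83, 4.89, 5.42 and 6.61 against 7.47, 7.94, 6.63 and 8.11. Atp6v0d2 had the widest separation of the 38 genes, 0.86, whereas Gpnmb was separated by 0.02. Both were listed for their large falls in these same samples, so nothing is read from their rank. Mmp12, the macrophage elastase, read 5.59, 5.25, 5.40 and 6.06 against 7.58, 7.88, 6.48 and 8.45, and its beating samples were close together (SD 0.35).

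C1qa, C1qb and C1qc encode the chains of complement C1q, of which macrophages are a main source. C1qc read 3.05, 5.09, 5.42 and 6.32 in beating and 6.32, 7.82, 6.74 and 8.11 in non-beating samples. Its beating replicate 4 was level with its non-beating replicate 1. C1qa and C1qb differed by -0.94 and -1.46, and only C1qb was separated, by 0.16. Ctss (cathepsin S) differed by -1.44 and Cybb, the catalytic subunit of the phagocyte NADPH oxidase, by -1.57, and both were just separated, by 0.10 and 0.04.

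**Figure D1:**
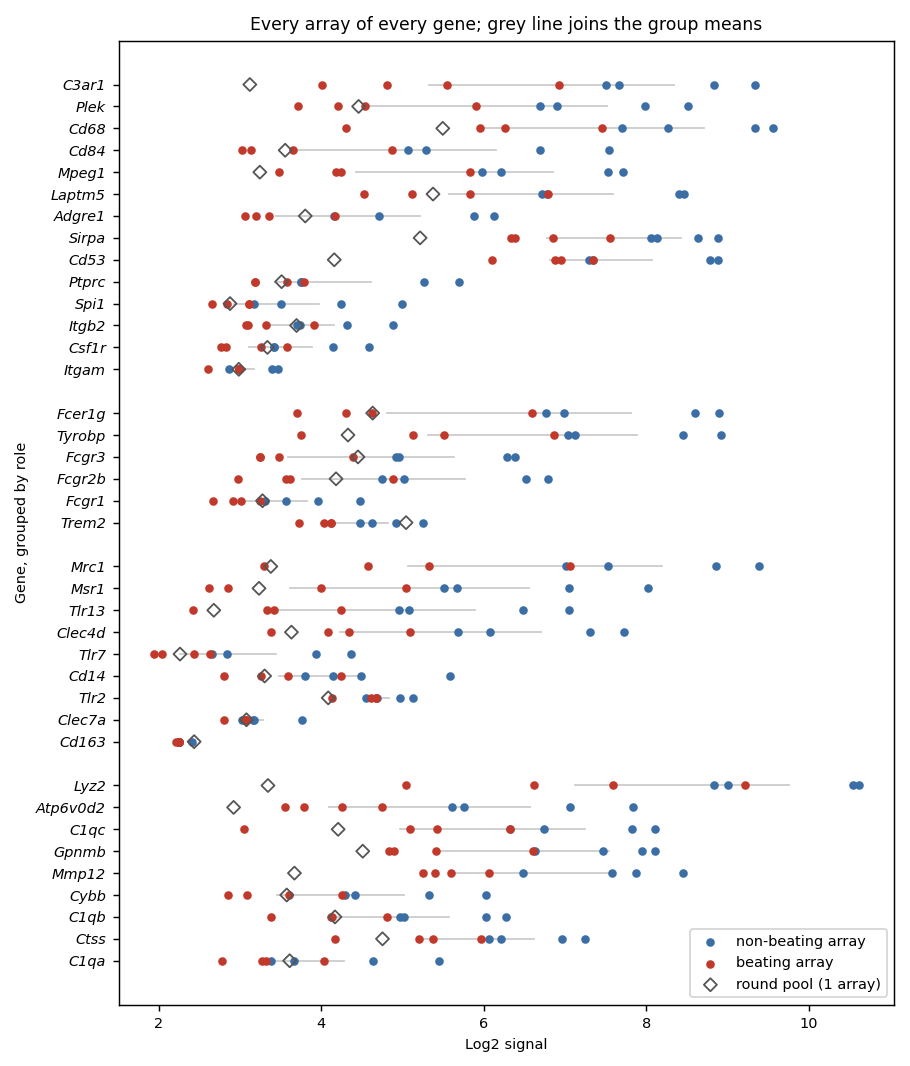
Log2 signal (x axis) of the 38 macrophage and phagocyte genes (rows) on each array, with 1 point per array for the 4 beating, the 4 non-beating and the 1 round sample. In 22 genes every beating point lies left of every non-beating point, and the span of the beating points differs widely, from Cd163 to Lyz2. Positions are to be read along a row, since probes of different genes are not comparable.

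Over all clusters, limma called 3.34% lower and 2.82% higher in beating samples at an adjusted p under 0.05. Of the 38 genes, 11 (28.9%) were called lower and 0 higher: Sirpa, Plek, C3ar1, Mpeg1, Fcgr3, Trem2, Tlr13, Clec4d, Mmp12, Gpnmb and Atp6v0d2. At an unadjusted p under 0.05, 33 were lower, against 12% of all clusters. All beating arrays lay below all non-beating arrays in 22 of 38 genes (57.9%), against 8.24% of all clusters, and above them in none, against 5.98%. Nothing is read from these counts, since the genes were chosen with this contrast known.

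The number called depended on single arrays. It was 2, 0, 1 and 17 without beating replicates 1, 2, 3 and 4 in turn, and 7, 0, 7 and 2 without non-beating replicates 1, 2, 3 and 4. At an unadjusted p under 0.05, between 27 and 35 genes were lower in these 8 fits. The median difference lay between -2.10 and -1.58. Without beating replicate 4, 34 of the 38 genes were separated between the groups, against 3570 of 33323 clusters. Without non-beating replicate 1, 28 genes were separated. Leaving out an array makes separation easier for every cluster. Counts over all clusters are not given here for that fit or for the calls above, so nothing is read from them.

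The 38 genes varied together among samples that carry the same label. Beating replicate 4 was the highest beating array in 34 genes (89.5%), against 19.2% of all clusters, and replicate 1 the lowest in 30 (78.9%), against 27.1%. Non-beating replicates 2 and 4 were both above 1 and 3 in 37 genes (97.4%), against 13.6%. Both features, beating replicate 4 at the top of its group and non-beating replicates 2 and 4 above the others, held for 34 genes (89.5%), against 2.9%. The same order appeared in the lineage, Fc receptor, pattern receptor and effector groups. Mean signals of the lineage group were 3.81, 4.20, 4.50 and 5.30 in beating and 5.54, 6.68, 5.52 and 7.04 in non-beating samples, and those of the Fc receptor group 3.39, 3.93, 3.95 and 5.02 against 5.22, 6.60, 5.36 and 6.65.

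The spread within groups was correspondingly wide. The residual SD of the fit had a median of 0.748 over the 38 genes, against 0.154 over all clusters, and only 1.61% of clusters reached that median. Beating replicates 1 to 3 lay below all non-beating arrays in 34 genes, against 3570 of 33323 clusters. Beating replicate 4 lay above at least 1 non-beating array in 14 genes, against 23369 of 33323 clusters. Among these genes were Lyz2, Mrc1 and Adgre1.

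**Figure D2:**
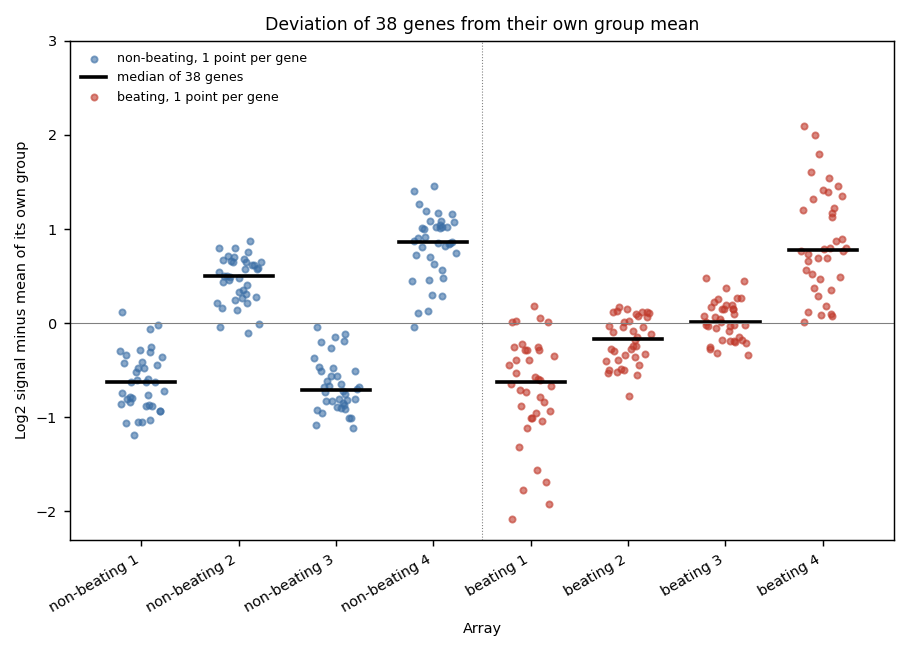
Log2 signal of each of the 38 genes minus that gene's mean in its own group (y axis) on each of the 8 arrays (x axis), with 1 point per gene and a black bar at the median. Most points lie above 0 on non-beating replicates 2 and 4 and on beating replicate 4, and below 0 on non-beating replicates 1 and 3 and on beating replicate 1.

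Likeness within the groups was measured as Pearson's r across 8 arrays after each group's mean was removed, which leaves the group difference out. It is given without a p, and the arrays and their amplification are shared by all genes. The 38 genes had a median r of 0.948 with the mean of the other 37, and 26 of them (68.4%) were over 0.9, against 93 of 19897 other genes (0.467%). Plek, Fcgr2b and Tlr13 followed the others most closely, with r of 0.986, 0.983 and 0.982. Those that followed them least were Cd163 (-0.384), Clec7a (0.544), Trem2 (0.579), Spi1 (0.729) and Mmp12 (0.748).

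The 10 genes outside the list with the highest r were Lipa, Lilr4b, Fcrls, Gpr65, Gapvd1, Lilrb4a, Slc40a1, Nckap1l, Fabp5 and Ms4a6c. Predicted genes were left out of this ranking. Lipa, the lysosomal acid lipase, was the most alike of the 10 (r = 0.997). It read 6.74, 7.10, 7.14 and 7.65 in beating and 7.83, 8.48, 7.82 and 8.74 in non-beating samples. Gpr65, a proton-sensing receptor of leukocytes, read 1.88, 2.62, 3.50 and 4.27 against 4.76, 6.65, 5.20 and 7.61. Slc40a1 is the iron exporter ferroportin, and Gapvd1, a ubiquitous endocytic protein, had a difference of only -0.16. The 100 most alike genes, now with predicted genes included, were taken from 19897 ranked genes. Of these 100, 20 came from the 119 further phagocyte genes described next (16.8% of the 119). From 73 markers of other cells came 0, which says little when so few of all genes are taken.

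Related pathways were read from lists of 119 further phagocyte genes that are not among the 38. Some, such as ligands and proton pump subunits, are also made by other cells. These lists were chosen with earlier results of these data known, so their counts and p-values are no independent support. Of the 119, 15 (12.6%) were lower in beating samples by limma, against 3.34% of all clusters. Only 1 was higher, and 103 did not pass. Calls were uneven, with 0 in 18 signalling genes and 0 in 18 further scavenger receptors. The median difference of the 119 was -0.29. Between the groups, 33 (27.7%) were separated with the beating arrays lower, against 8.24% of all clusters. Of the arrays left out in turn, those that moved the count of 15 by more than 1.5 times were beating replicate 2 (9 lower) and non-beating replicates 1, 2 and 4 (9, 7 and 9). A plain two-sample test after adjustment called 8.

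The lysosome and lipid-handling genes held the most calls, 6 of 13, all lower, against 3.34% of all clusters called lower. Apoe, the lipid carrier that lipid-laden macrophages secrete, read 6.33, 6.55, 7.40 and 7.84 in beating and 8.44, 9.51, 8.17 and 9.46 in non-beating samples (difference -1.87, adjusted p = 0.044 by limma). Fabp5, a fatty acid binding protein, read 6.38, 6.50, 6.63 and 7.26 against 8.04, 8.98, 7.85 and 9.14 (difference -1.81, adjusted p = 0.020). Gla, a lysosomal galactosidase, and Plin2, a lipid droplet coat protein, were lower by -1.03 and -0.85, and the lysosomal proteins Lamp2 and Npc2 by -0.46 and -0.66. The Apoe and Npc2 calls were lost when any array but beating replicate 4 was left out, with adjusted p up to 0.12 and 0.13. That of Fabp5 was lost without beating or non-beating replicate 2, that of Gla without beating replicate 2 or any non-beating array, and that of Plin2 without beating replicate 1, 2 or 3 or non-beating replicate 1 or 2. The Lamp2 call was kept in all 8 of these fits.

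Of 13 further proton pump subunits, 2 were lower: Atp6v1a by -0.98 (adjusted p = 0.021 by limma) and Atp6ap2 by -0.42 (adjusted p = 0.019). Of 3 partners of Cybb in the oxidase, Cyba was lower by -1.18 (adjusted p = 0.0092). It read 4.30, 4.10, 4.36 and 4.31 in beating and 4.98, 5.49, 5.40 and 5.92 in non-beating samples. The Atp6v1a call was lost without beating replicate 1 or any non-beating array, and the Atp6ap2 call without non-beating replicate 1, 2 or 4.

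Of 10 other Toll-like receptors and partners, Tlr3 and Tlr4, the sensors of double-stranded RNA and of lipopolysaccharide, were lower. Tlr4 read 6.45, 6.77, 6.75 and 6.56 in beating and 7.34, 7.49, 7.43 and 7.85 in non-beating samples (difference -0.90, adjusted p = 0.0064 by limma). Both receptors are also made by stromal cells. Cd180, a Toll-like protein of B cells and macrophages, had a difference of -1.97 that did not pass (adjusted p = 0.071).

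Among 7 ligands of macrophage receptors, Cd47, the partner of Sirpa, and the monocyte chemoattractant Ccl2 were lower. Cd47 read 9.05, 9.43, 9.49 and 9.41 in beating and 10.12, 10.19, 10.29 and 10.42 in non-beating samples (difference -0.91, adjusted p = 0.0037 by limma), and Ccl2 differed by -0.84 (adjusted p = 0.012). Csf1, the ligand of Csf1r, read 8.73, 8.26, 8.84 and 9.01 against 9.38, 9.15, 9.36 and 9.08 and did not pass (adjusted p = 0.098). Its difference of -0.53 had a 95% interval from -0.90 to -0.17.

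Of 14 myeloid transcription factors, Cebpa, which macrophages share with adipocytes, was lower by -1.20 (adjusted p = 0.013 by limma) and Irf8 by -0.29 (adjusted p = 0.033). The Irf8 call was lost when any array but beating replicate 3 was left out. None of the 18 signalling genes, 18 further phagocytic and scavenger receptors or 6 class II genes passed in limma. At an unadjusted p under 0.05, 8, 5 and 1 of these were lower, and the adjusted two-sample test called none. Lcp1 (L-plastin), an actin bundler of leukocytes, read 3.56, 3.42, 4.84 and 5.42 in beating and 5.51, 7.10, 5.73 and 7.31 in non-beating samples (adjusted p = 0.080). Cd5l, a secreted macrophage protein, differed by -1.86 (adjusted p = 0.054), and H2-DMa of class II by -0.20 (adjusted p = 0.15).

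Class II genes, which present antigen, had list means of 2.47 to 2.67 in beating and 2.62 to 2.64 in non-beating samples, below the array medians. Of 17 further leukocyte surface genes, 13 had a lower beating mean, and 7 were lower at an unadjusted p under 0.05 in limma. After adjustment only Itga4 passed, and in the other direction. This integrin chain, which developing muscle also carries, read 6.55, 7.17, 6.13 and 6.89 in beating and 3.68, 3.79, 3.56 and 4.72 in non-beating samples (difference 2.75, adjusted p = 0.0021 by limma). The round pool read 8.47.

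**Figure D3:**
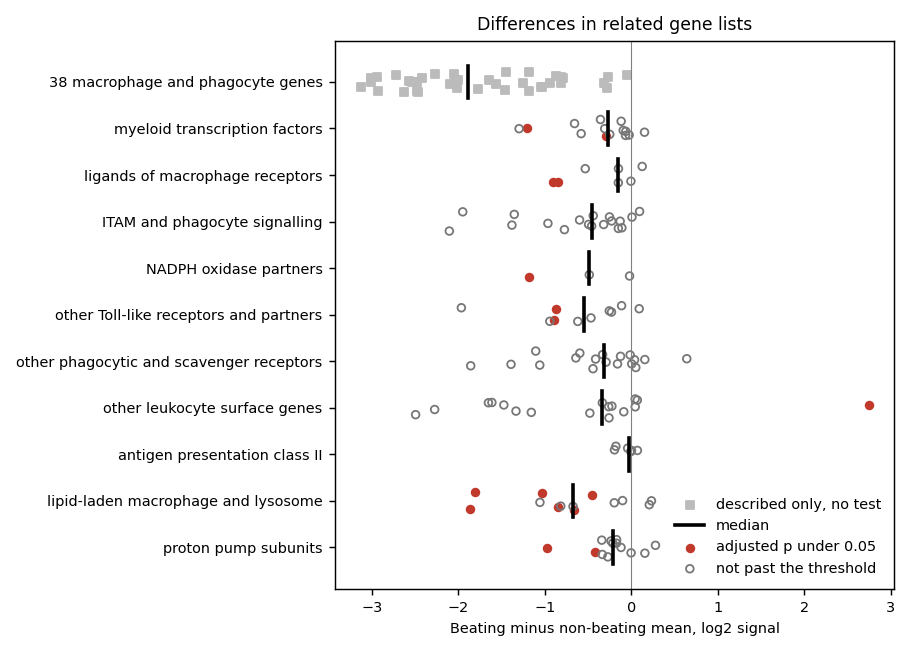
Difference between the beating and non-beating means (x axis, log2 signal) for the 38 genes and 10 lists of related phagocyte genes (rows), with 1 point per gene and a bar at each list's median. Filled circles passed limma's adjusted p under 0.05, open circles did not, and the 38 genes are drawn as grey squares because their differences are a description. The lipid and lysosome list holds 6 filled circles, all left of 0, and Itga4 stands alone at the right.

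Markers of other cells were read on the same arrays, from lists that were also chosen with earlier results of these data known. Of 10 striated muscle genes, 9 were higher in beating samples (limma, adjusted), with list means from 8.90 to 9.17 against 3.46 to 3.82, and 9.06 in the round pool. Differences were 6.88 for Neb, 6.83 for Myh3, 6.46 for Actc1 and 6.40 for Ttn, which encode sarcomere proteins. Of 7 fibroblast genes, 2 were lower, Dcn by -1.17 (adjusted p = 0.0035) and Pdgfra by -1.48 (adjusted p = 0.016), with list means from 7.42 to 7.87 against 7.98 to 8.54. Of 8 adipocyte genes, Adipoq was lower by -1.95 (adjusted p = 0.021) and Pparg by -0.79 (adjusted p = 0.025). The Pdgfra call was lost without non-beating replicate 2 or 3, the Adipoq call without beating replicate 2 or 3 or non-beating replicate 3, and the Pparg call without beating replicate 3 or non-beating replicate 1, 2 or 3.

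None of the osteoclast, dendritic cell, neutrophil, T and NK cell, B cell, mast cell or endothelial markers passed in limma, and at an unadjusted p under 0.05 only 1 of them, an osteoclast gene, and 0 of the others were lower. Apart from the endothelial list, these lists had means between 2.32 and 3.36 on the 8 arrays, where genes restricted to tissues absent from the culture had 2.43 to 2.65. Single genes stood out from these means. Ctsk (cathepsin K), a protease of osteoclasts that fibroblasts also make, read 6.99, 6.57, 6.76 and 6.78 in beating and 7.40 to 8.07 in non-beating replicates 1 to 3. Non-beating replicate 4 lay 0.01 above the highest beating array, and the difference of -0.71 did not pass (adjusted p = 0.095 by limma) except without non-beating replicate 4 (adjusted p = 0.050). Kit, a receptor of mast cells and progenitors, read 2.70, 3.01, 3.93 and 4.21 against 3.27, 3.23, 3.65 and 4.40. Another was Cd3g, with 4.45, 6.41, 3.52 and 4.74 in beating and 2.63 to 2.92 in non-beating samples (adjusted p = 0.067 by limma), whereas Cd3e and Cd3d differed by -0.08 and 0.04. S100a8, a neutrophil and monocyte gene, read 3.90 in non-beating replicate 4 and 2.16 to 2.58 on the other beating and non-beating arrays, where its partner S100a9 read 2.10 to 2.44 throughout. The largest differences in the dendritic cell, B cell, endothelial and absent-tissue lists, none of which passed, were -0.12 for Zbtb46, 0.23 for Blk, -0.50 for Cdh5 and 0.26 for Crygc.

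The order of the arrays within the groups was partly shared by other cells. The endothelial list had means of 3.73, 4.99, 5.34 and 5.70 in beating replicates 1 to 4, so that replicate 1 was lowest and replicate 4 highest, as in the 38 genes. Its non-beating means of 5.08, 4.70, 5.18 and 5.74 did not follow the 38 genes, since replicate 2 was the lowest. The fibroblast list had the same order in the beating samples, at 7.42, 7.65, 7.71 and 7.87, and the muscle list was highest in replicate 1. In the non-beating samples the fibroblast list was lowest in replicate 4 (8.54, 8.30, 8.39 and 7.98), and the muscle list was slightly higher in replicates 2 and 4 (3.73 and 3.82) than in 1 and 3 (3.49 and 3.46). The part of these cells in the macrophage values was not tested.

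**Figure D4:**
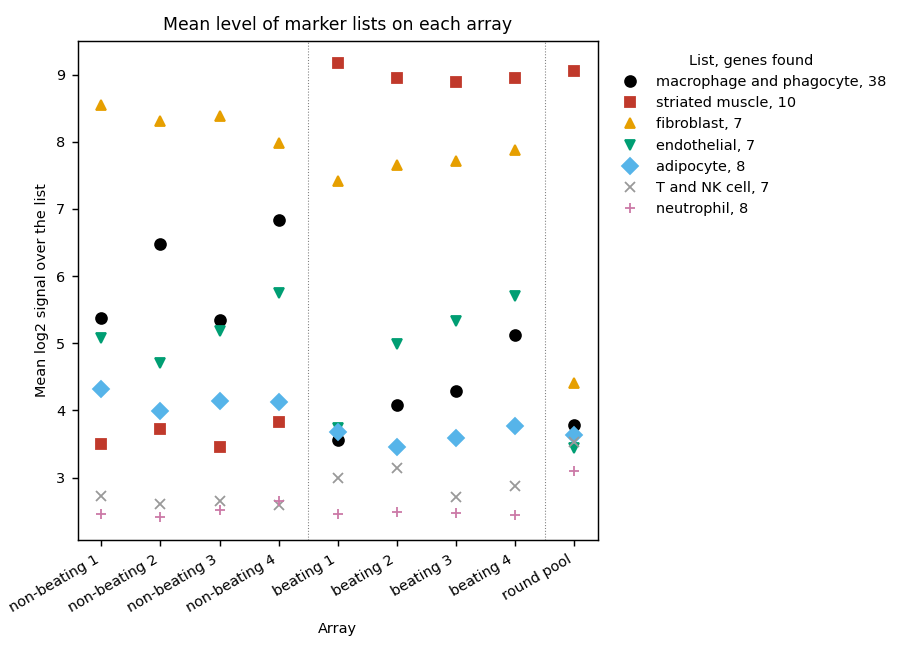
Mean log2 signal (y axis) of the 38 macrophage and phagocyte genes and of marker lists of other cells on each of the 9 arrays (x axis), with 1 symbol per list and array. The macrophage mean runs from 3.55 to 5.12 in beating and from 5.35 to 6.83 in non-beating samples, and the muscle mean from 8.90 to 9.17 and from 3.46 to 3.82.

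The round pool of day 14 had a mean of 3.78 over the 38 genes as deposited, inside the range of the beating samples. Genes restricted to absent tissues had a mean of 3.10 in the pool, against 2.43 to 2.65 on the beating and non-beating arrays. Dim signals were thus raised in the pool, and how it stands to the beating samples depends on the scaling, as given below. It has no replicate, its RNA came from 6 cells, and cells, day and sample type cannot be told apart in it. Its values lay a median of 2.04 below the non-beating mean (median difference -2.04), and 36 of 38 genes were below that mean. Over all clusters the median difference was 0.22. In 32 genes the round pool was below all 4 non-beating arrays, against 29.3% of all clusters. With all clusters divided into 4 equal bins by non-beating signal, the 25 genes in the brightest bin had a median difference of -3.18, against -1.33 over all clusters of that bin, and the 12 in the next had -0.61 against 0.21.

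Against the beating mean, the round pool differed by a median of -0.17, with 24 genes below and 14 above. It was below all 8 other arrays in 9 genes (Cd53, Mpeg1, C3ar1, Sirpa, Tlr2, Lyz2, Mmp12, Gpnmb and Atp6v0d2), a share near the 24.4% of all clusters. Lyz2 read 3.34 in the round pool, 6.41 below the non-beating mean (difference -6.41), and C3ar1 read 3.12 (difference -5.22). Mrc1 read 3.38 and Cd53 4.16. The Lyz2, C3ar1 and Mrc1 values lay near the mean of 3.10 that the absent-tissue genes had in this pool. Cd68 and Laptm5 read 5.50 and 5.37, within the range of their beating arrays.

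Trem2 went the other way. It read 5.04 in the round pool, 1.04 above the beating mean and 0.23 above the non-beating mean. Once each array was centred on its median, the second difference became -0.23, and after quantile normalisation 0.98, so its direction against non-beating samples depends on the scaling. Fcgr3 read 4.45, above the beating mean by 0.86 (0.46 centred, 1.18 after quantile normalisation) and below all non-beating arrays. Against non-beating samples, the median over the 38 genes was -2.50 after centring and -1.69 after quantile normalisation, with 38 and 37 genes below the mean. Against beating samples it was -0.57 and -0.36, with 35 and 27 genes below.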

How the data were processed

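RNA was amplified (Ovation Pico WTA) and hybridised to Affymetrix Mouse Gene 1.0 ST arrays. Per the study's methods, the authors used BRB-ArrayTools to bring raw signals to a log2 scale, followed by normalisation and mean-centring. The method behind the deposited log2 table, its build and its probe summary are not given in the sources used here. The deposited log2 values were used unchanged. Arrays give no read depth, and their number limits the precision. No pair of arrays was a duplicate (smallest median absolute difference 0.111).

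The members and the gene lists were chosen with earlier results of these data known. Of 33323 clusters, 21789 carry 1 gene symbol, 1621 several and 9913 none. A gene with several clusters was read from the one with the highest mean over 8 arrays. Listed genes without such a cluster were not analysed here. In 9246 clusters a value is repeated exactly on 3 or more of 8 arrays, which includes Cd163 and Itgam.

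The groups were compared by a limma 3.58.1 fit in R 4.3.3 (eBayes, two-sided, Benjamini-Hochberg over all clusters, called at an adjusted p under 0.05). The round pool was in no fit. Every member is named. From the other lists, at most 4 called genes with the largest difference are named, or the largest difference where none was called. The 10 genes most alike by group-centred Pearson's r are also named, with predicted genes left out. Cd180, Csf1, Npc2, Lamp2, Cd3e, Cd3d and the round pool values were named after their values were seen. The fit was tested on simulated data. Motifs were searched in RefSeq promoters. Alternatives were median-centring, quantile normalisation, leaving out dim clusters, a trended robust variance, array weights, the two-sample test of the study's methods, each array left out in turn, a replicate block, and other ways of picking a gene's cluster.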

Additional observations from a re-analysis of the deposited data

Results flagged for a closer look

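Within groups of 4 arrays, 1 array stood far from the other three in 9 of 144 groups (72 named genes in 2 groups), or 6.25%, where chance gives about 1 in 20. Among the macrophage and phagocyte genes, beating replicate 1 was low for Itgam (2.60, the others at 2.98) and for Tlr2 (4.14, the others at 4.61 to 4.68). Beating replicate 3 was low for Clec7a (2.80, the others at 3.06 to 3.07). Cd163 was low in beating replicate 2 (2.21, the others at 2.25) and high in non-beating replicate 1 (2.41, the others at 2.25), beside values that are identical on the other arrays.

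Among the further genes, Cd47 was low in beating replicate 1 (9.05, the others at 9.41 to 9.49), and Atp6v1a was high in non-beating replicate 4 (7.34, the others at 7.05 to 7.09). Zbtb46, a dendritic cell gene, was high in non-beating replicate 1 (2.91, the others at 2.81), and S100a8 in non-beating replicate 4 (3.90, the others at 2.42 to 2.58).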

How the results depend on the processing

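The differences of the 38 genes kept their direction under every alternative tried and moved by less than 1 SD in 456 of 456 values, but the number called did not hold. It was 11, and became 23 without dim clusters, where 35 of the 38 genes were tested. It was 5 with array weights and 24 with a replicate block. The adjusted two-sample test of the study's methods called 0 (29 at an unadjusted p under 0.05). At its unadjusted p under 1e-04 with the 1.5-fold filter, where 35 genes were tested, it called 0. The number called was 15 after centring, 12 after quantile normalisation and 13 with a trended robust variance. Leaving out each array gave 0 to 17 called and 22 to 34 genes without overlap. Of the further phagocyte genes, 24 were lower without dim clusters, 8 by the adjusted two-sample test and 0 with its filter, and 7 to 17 when each array was left out, against 15. The block used replicate numbers, and the sources used here do not say whether same-numbered samples share dishes or lots. Over all clusters, deviations of same-numbered arrays correlated at -0.012, 0.028, -0.009 and 0.020. These values cannot decide whether the samples are paired, since most clusters need not vary with the dish. With the block, 18 further phagocyte genes were called lower. Shares of all clusters called under these alternatives are not given here, so nothing about the genes is read from any of these counts. Of 618 values for other named genes under the alternatives, 518 kept direction and call, 95 changed the call and 5 reversed, none of them called: Kit to 0.079 and Cdh5 to 0.085 with array weights, and both when single arrays were left out, which gave -0.42 to 0.078 for Kit (above 0 without beating replicate 1 or non-beating replicate 4) and -1.02 to 0.39 for Cdh5 (above 0 without beating replicate 1). The cause of these changes was not tested. Signals include background, which limits the differences of dim genes such as Cd163.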
